A study of Mus musculus and Acomys cahirinus with 25 samples.

Results

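The dermis of healing wounds on post-wound day (PWD) 21 was compared with the dermis of unwounded skin (PWD0) in the African spiny mouse, Acomys cahirinus. The comparison took every library labelled as spiny mouse dorsal dermis from these days, which was 2 of PWD21 and 2 of PWD0, or 4 of the 25 samples in the series. The series addressed how the mechanics of a wound bed relate to the hair follicles that form in it, and spiny mice were included because their large wounds regrow hair. All 4 libraries came from wild-type animals. Per the study's methods, spiny mice of both sexes and about 2 months of age carried square full-thickness wounds on the back, the whole wound was harvested with no division into center and margin, and PWD0 was shaved intact skin. Each tissue lay on trypsin in the cold before the epidermis was peeled off, and a dermal sheet taken this way can hold hair follicles, glands, fat, vessels, nerves and muscle. The study's reporting summary calls its bulk RNA-seq duplicates independent, but the labels tie no library to an animal, and p-values measure only the spread between these libraries. The study's own sample list gives days slightly different from the labels for the PWD21, PWD14 and PWD28 libraries, and the days of the labels were used.

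A skin wound that closes by secondary intention fills with granulation tissue, in which fibroblasts lay down a provisional matrix rich in fibronectin and tenascins and then replace it with collagen. In laboratory mice the product is usually a scar without hair, whereas spiny mice are known to restore hair follicles, sebaceous glands and other appendages. New follicles start as epidermal placodes over a condensate of fibroblasts, and Wnt, hedgehog, BMP and FGF signals pass between both tissues.

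Expression is given as CPM, the count of a gene relative to the TMM-scaled total of its library. Each gene's values follow the order of replicate 1 and replicate 2, numbers that follow the listing of the samples and pair nothing across days. A gene rose or fell where its false discovery rate (FDR), the Benjamini-Hochberg adjusted p from edgeR's quasi-likelihood test over all genes tested, was under 0.05, and each log2 fold change is of PWD21 over PWD0, given with its standard error. Of 14481 genes tested, 3792 (26.2%) changed, with 1742 (12%) that rose and 2050 (14.2%) that fell, and the median log2 fold change of all genes was 0.03. These shares are the background for the counts of every gene list below, and a count near them does not set a list apart. Reads on genes numbered 5669760 and 6804714 at PWD0 against 21927269 and 34751956 at PWD21, so 3 counts, taken as the smallest detectable amount, were worth 0.601 and 0.418 CPM at PWD0 against 0.129 and 0.0849 CPM at PWD21 on the TMM scale. Reads on genes made up 27.0% and 32.8% of the PWD0 libraries and 44.9% and 52.9% of the PWD21 libraries. Reads dropped for low alignment quality made up 60.5% and 55.2% at PWD0 and 44.8% and 38.0% at PWD21. Depth, these shares and the day of the wound moved together and cannot be told apart.

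Long genes stood higher at PWD21 than short genes. In the tenth of genes with the shortest exon length, up to 1668 bases of the laboratory mouse annotation, the median log2 fold change was -1.0 with 38 genes that rose and 445 that fell, and in the tenth with the longest, from 9832 bases, it was 0.49 with 301 that rose and 95 that fell. The rank correlation of log2 fold change and exon length across 14129 genes was 0.329, which describes genes of the same libraries and carries no test. An offset that removed each library's smooth trend with gene length left 1496 genes (10.3%) that rose and 1887 (13.0%) that fell, of which 2847 were among the 3792 calls above with the same direction. What produced the length trend was not tested, and the calls of short-gene lists are therefore given with and without the offset. Of 190 called genes named in the text, 10 lost the call with the offset, as said beside each, and 26 kept it with a fold change moved by more than 1.5 times, 24 of them to a smaller one. Leaving out a library of PWD21 also removed many calls, since 1349 of the 3792 held without PWD21 replicate 1 and 1285 without PWD21 replicate 2, against 3113 and 3385 without each PWD0 library, although 3701 had the same sign in all 4 cases.

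**Figure D1:**
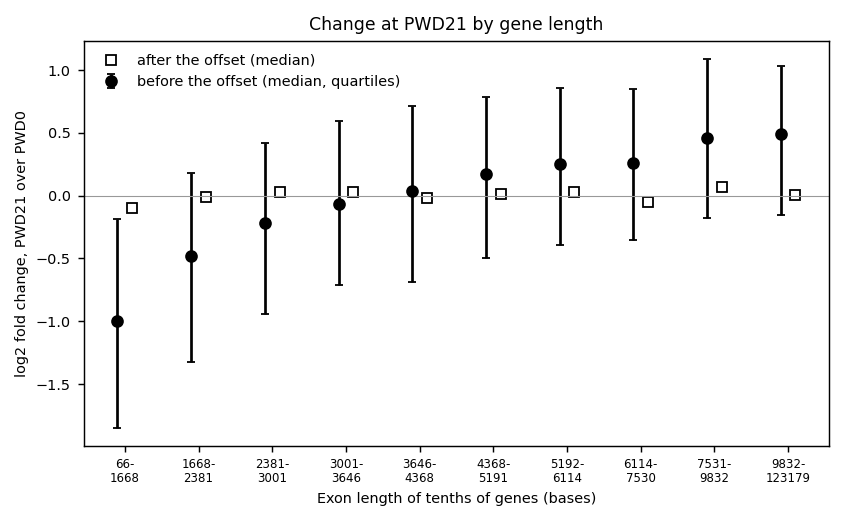
Median log2 fold change of PWD21 over PWD0 (y axis) in 10 groups of genes ordered by exon length (x axis, from the shortest to the longest), before (circles, with bars from the first to the third quartile of genes) and after (squares) the length offset. The medians climbed from -1.0 to 0.49 before the offset and lay between -0.10 and 0.07 after it.

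Of the 10 genes named for the highest gains at PWD21, 7 encode secreted proteins, among them matrix proteins and proteases. Tnn, which encodes tenascin-W and lies on chromosome 1 of GRCm38 from 160085029 to 160153580, had 0 and 2.51 CPM at PWD0 and 562 and 579.6 CPM at PWD21 (log2 fold change 8.71 ± 1.0, FDR = 0.000851). Cthrc1, a secreted collagen triple helix repeat protein on chromosome 15 from 39076932 to 39087121, had 1.8 and 2.51 CPM at PWD0 and 535 and 438 CPM at PWD21 (log2 fold change 7.8 ± 0.40, FDR = 0.000144). Both genes went from under 3 CPM in intact dermis to at least 438 CPM in both wound libraries. Mmp11, the metalloproteinase stromelysin-3 on chromosome 10 from 75923222 to 75936496, had 6.62 and 9.76 CPM at PWD0 and 973 and 869 CPM at PWD21 (log2 fold change 6.81 ± 0.41, FDR = 0.000145). Prss35, a member of the serine protease family by sequence, on chromosome 9 from 86743649 to 86758443, had 2.0 and 5.16 CPM at PWD0 and 823 and 807 CPM at PWD21 (log2 fold change 7.8 ± 0.54, FDR = 0.000191). Adamts17, a secreted protease on chromosome 7 from 66839735 to 67153171, had 2.61 and 0.139 CPM at PWD0 and 239 and 557 CPM at PWD21 (log2 fold change 8.28 ± 0.99, FDR = 0.00103), with PWD21 replicate 2 more than 2-fold above replicate 1. The days did not overlap for any of the 5 genes, as the rule for naming them required. Of all 14481 genes tested, 9858 had no overlap between the days.

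Ibsp, which encodes the bone matrix protein integrin-binding sialoprotein on chromosome 5 from 104299171 to 104311469, had no count in either PWD0 library and 662 and 743 counts at PWD21, at least 41.2-fold higher against a floor of 3 counts per library. Egfl6, an EGF-like matrix protein on the X chromosome from 166523007 to 166585720, had 0 and 3 counts at PWD0 and 10249 and 12434 at PWD21. The ratio of its pooled levels was 1572-fold with a 95% interval from counting of 538-fold to 7623-fold. A further 3 genes of this rank, 2900011O08Rik, Snph and Fam101a, had at most 2 counts in any PWD0 library and between 391 and 1676 counts in the PWD21 libraries.

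The 10 genes named for the largest falls were of mixed kinds, among them a cartilage matrix protein, hormones, receptors and a muscle protein. Comp, cartilage oligomeric matrix protein, on chromosome 8 from 70373558 to 70382066, had 192 and 81.7 CPM at PWD0 and 0.258 and 0.822 CPM at PWD21 (log2 fold change -7.92 ± 0.69, FDR = 0.000331). Wfdc3, a whey acidic protein-type inhibitor on chromosome 2 from 164731180 to 164745931, had 612 and 269 counts at PWD0 and none in either PWD21 library, at least 620.1-fold lower. Serpinb11 had 76.8 and 37.1 CPM at PWD0 and 0.0862 and 0.198 CPM at PWD21 (log2 fold change -8.51 ± 0.60, FDR = 0.000197). P2rx2, an ATP-gated channel, had 281 and 122 CPM at PWD0 and 0.991 and 1.1 CPM at PWD21 (log2 fold change -7.57 ± 0.52, FDR = 0.000191). Cck, the cholecystokinin precursor, had 107 and 32.9 CPM at PWD0 and 0 and 0.227 CPM at PWD21, Prlr, the prolactin receptor, 28.5 and 18.3 CPM at PWD0 and 0.129 and 0.113 CPM at PWD21, and Angptl8 22.1 and 42.1 CPM at PWD0 and 0.302 and 0.0283 CPM at PWD21. Lep and Myl1, the other named genes of this rank with a well-known tissue, are given with fat and muscle below, and 1500015O10Rik had 35.3 and 21.8 CPM at PWD0 and 0.215 and 0.142 CPM at PWD21.

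Fibrillar collagens did not move as 1 group. Among 11 tested members, 6 rose and 1 fell, with a median log2 fold change of 1.45 against 0.03 over all genes. Col5a1 and Col5a2, whose type V collagen nucleates fibrils and sets their diameter, had 415 and 370.1 CPM at PWD0 and 2379 and 4348 CPM at PWD21 (log2 fold change 3.1 ± 0.49, FDR = 0.00329) and 414 and 367 CPM at PWD0 and 3435 and 3866 CPM at PWD21 (log2 fold change 3.22 ± 0.44, FDR = 0.00187). Col11a1, Col24a1 and Col27a1, minor fibrillar collagens better known from cartilage and bone, rose by log2 fold changes of 3.41 ± 0.30, 4.37 ± 0.47 and 4.25 ± 0.41. Col11a2 fell from 65.6 and 34.2 CPM to 3.66 and 6.74 CPM (log2 fold change -3.25 ± 0.46, FDR = 0.00211).

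The 3 chains of the bulk collagens were not called. Col3a1 had 44667 and 24841 CPM at PWD0 and 49409.9 and 49676 CPM at PWD21 (log2 fold change 0.51 ± 1.14, FDR = 0.769). Col1a2 had 37318 and 20833 CPM at PWD0 and 32639 and 41076 CPM at PWD21 (log2 fold change 0.34 ± 1.05, FDR = 0.835). Col1a1 had 25057 and 13808 CPM at PWD0 and 15279 and 46632 CPM at PWD21 (log2 fold change 0.67 ± 1.03, FDR = 0.656). For Col1a1, PWD21 replicate 1 lay between the PWD0 libraries and replicate 2 above both, more than 3-fold apart. Of the 7 calls among fibrillar collagens, 7 held without PWD21 replicate 1 and 6 without PWD21 replicate 2, and all 7 held with the length offset.

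Among 26 other collagens, 13 rose and 3 fell (median 1.25). Col8a1, a short-chain network collagen, had 3.41 and 4.04 CPM at PWD0 and 151 and 165 CPM at PWD21 (log2 fold change 5.4 ± 0.33, FDR = 0.000145). Col12a1, which coats fibrils, had 79.2 and 135 CPM at PWD0 and 1632 and 1359.6 CPM at PWD21 (log2 fold change 3.8 ± 0.42, FDR = 0.000747). Col6a1, of the microfibril-forming type VI collagen, had 404 and 439 CPM at PWD0 and 3330.1 and 4439 CPM at PWD21 (log2 fold change 3.2 ± 0.46, FDR = 0.00227). Col25a1, a transmembrane collagen, and Col26a1 had 1.0 and 0.558 CPM at PWD0 and 34.1 and 32.7 CPM at PWD21 and 2.0 and 0 CPM at PWD0 and 72.2 and 88.2 CPM at PWD21. The 3 members that fell were Col17a1, the hemidesmosome collagen of basal keratinocytes, and 2 basement membrane chains. Col17a1 fell from 645 and 312 CPM to 14.2 and 34.4 CPM, and Col4a5 and Col4a6 fell by log2 fold changes of -1.85 ± 0.36 and -3.12 ± 0.60, while Col4a1 of the general basement membrane rose (log2 fold change 2.04 ± 0.40, FDR = 0.00816). Of the 16 calls, 12 held without PWD21 replicate 1 and 10 without PWD21 replicate 2.

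Enzymes that process and cross-link collagen gave 14 that rose and 2 that fell of 29 (median 1.06). P4ha3, a prolyl 4-hydroxylase subunit, had 1.2 and 1.25 CPM at PWD0 and 115 and 111 CPM at PWD21 (log2 fold change 6.51 ± 0.35, FDR = 0.000144), whereas P4ha1 had 61.5 and 61.9 CPM at PWD0 and 104 and 83.3 CPM at PWD21 and was not called (FDR = 0.129). Lox, lysyl oxidase, had 42.3 and 38.3 CPM at PWD0 and 211 and 228 CPM at PWD21 (log2 fold change 2.45 ± 0.28, FDR = 0.000787), Serpinh1, the collagen chaperone HSP47, had 573 and 427 CPM at PWD0 and 1838 and 2523 CPM at PWD21 (log2 fold change 2.13 ± 0.41, FDR = 0.00757). P3h1, a prolyl 3-hydroxylase, had 46.9 and 38.2 CPM at PWD0 and 189.9 and 239.7 CPM at PWD21 (log2 fold change 2.34 ± 0.29, FDR = 0.00128). Plod2, a lysyl hydroxylase of cross-link formation, had 6.01 and 6.0 CPM at PWD0 and 46.4 and 13.9 CPM at PWD21 (log2 fold change 2.33 ± 0.55, FDR = 0.0175), and its PWD21 libraries differed by more than 3-fold. Pcolce2, an enhancer of procollagen cleavage, fell from 285 and 271 CPM to 2.11 and 1.9 CPM (log2 fold change -7.11 ± 0.34, FDR = 0.000144). Of the 16 calls, 11 held without PWD21 replicate 1 and 9 without PWD21 replicate 2.

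**Figure D2:**
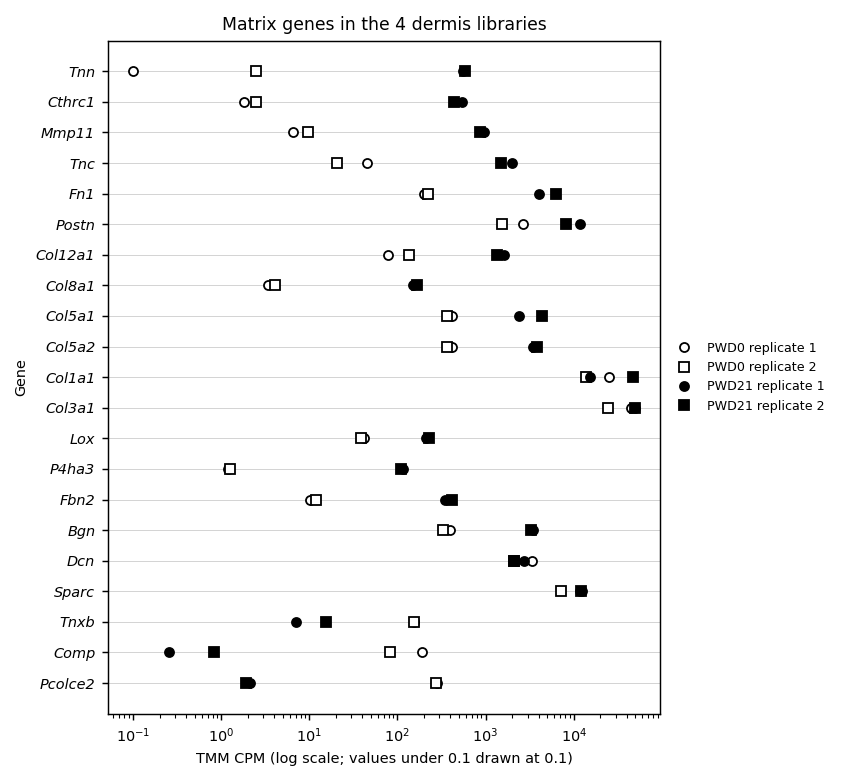
TMM CPM (x axis, log scale, with values under 0.1 drawn at 0.1) of matrix genes named in the text (rows) in the 2 PWD0 libraries (open symbols) and the 2 PWD21 libraries (filled symbols), with circles for replicate 1 and squares for replicate 2. Among the genes drawn here that rose, Tnn and Cthrc1 lie furthest apart between the days, and for Col1a1, Dcn and Sparc the libraries of the 2 days overlap.

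Elastic fiber genes rose in 7 of 17 cases and fell in none (median 0.76). Fbn2, the fibrillin of developing tissue, had 10.2 and 12 CPM at PWD0 and 345 and 421 CPM at PWD21 (log2 fold change 5.1 ± 0.33, FDR = 0.000191), a gain of 34.4-fold. Fbln5, which binds elastin to cells, had 206 and 221 CPM at PWD0 and 1029 and 1129 CPM at PWD21 (log2 fold change 2.34 ± 0.33, FDR = 0.00204). Eln itself had 543 and 523 CPM at PWD0 and 250.4 and 457 CPM at PWD21 and was not called (FDR = 0.246). Fbn1 rose (log2 fold change 1.21 ± 0.34, FDR = 0.033) but was 0.71 with the length offset (FDR = 0.15). Of the 7 calls, 5 held without PWD21 replicate 1 and 5 without PWD21 replicate 2.

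Among 25 proteoglycans and enzymes of hyaluronan, 13 rose and 2 fell (median 1.59). Bgn, the small proteoglycan biglycan, had 395 and 328 CPM at PWD0 and 3465 and 3274 CPM at PWD21 (log2 fold change 3.22 ± 0.44, FDR = 0.00176). Fmod, fibromodulin, had 25.5 and 28.2 CPM at PWD0 and 220.4 and 380.2 CPM at PWD21 (log2 fold change 3.48 ± 0.36, FDR = 0.000571). Dcn, decorin, which binds the same fibrils, had 3375 and 2106 CPM at PWD0 and 2749 and 2129 CPM at PWD21 and was not called (FDR = 0.819). Acan, the aggrecan of cartilage, had 0.601 and 0.418 CPM at PWD0 and 16.3 and 48.2 CPM at PWD21 (log2 fold change 6.0 ± 0.68, FDR = 0.000774). Vcan, versican, had 56.5 and 47.1 CPM at PWD0 and 293 and 239 CPM at PWD21 (log2 fold change 2.36 ± 0.29, FDR = 0.00118). The hyaluronan synthases went opposite ways: Has1 fell from 17.2 and 50.5 CPM to 1.46 and 2.8 CPM (log2 fold change -3.98 ± 0.59, FDR = 0.00264) and Has2 rose from 8.62 and 11.9 CPM to 41.3 and 26.9 CPM (log2 fold change 1.73 ± 0.36, FDR = 0.0111). Of the 15 calls, 7 held without PWD21 replicate 1 and 10 without PWD21 replicate 2.

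Matricellular proteins, which sit in the matrix and act on cells, split into 12 that rose and 7 that fell of 28. Tnc, tenascin-C, had 44.9 and 20.8 CPM at PWD0 and 1986 and 1513 CPM at PWD21 (log2 fold change 5.74 ± 0.53, FDR = 0.000381). Fn1, fibronectin, had 201 and 224 CPM at PWD0 and 3993 and 6381 CPM at PWD21 (log2 fold change 4.61 ± 0.54, FDR = 0.000959). Postn, periostin, had 2649.8 and 1523 CPM at PWD0 and 11906 and 8282 CPM at PWD21 (log2 fold change 2.27 ± 0.64, FDR = 0.032). Nov, also called Ccn3, had 21.2 and 46.2 CPM at PWD0 and 1187 and 914 CPM at PWD21 (log2 fold change 4.96 ± 0.48, FDR = 0.000453). These are gains of 53.4-, 24.5-, 4.84- and 31.1-fold. Against them, Tnxb, the tenascin-X of mature dermis, fell from 155 and 155 CPM to 7.02 and 15.6 CPM (log2 fold change -3.77 ± 0.42, FDR = 0.000747). Tgfbi fell from 1562 and 1092 CPM to 273 and 190.0 CPM (log2 fold change -2.52 ± 0.39, FDR = 0.00302). Sparc, a collagen-binding glycoprotein, had 12497 and 7176 CPM at PWD0 and 11695 and 12245 CPM at PWD21 and was not called (FDR = 0.797). Of the 19 calls, 13 held without PWD21 replicate 1 and 14 without PWD21 replicate 2.

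Proteases that act on matrix also rose. Of 27 metalloproteinases and their inhibitors, 10 rose and 1 fell (median 0.89). Mmp2 and Mmp14, a gelatinase and its membrane-bound activator, had 612 and 755 CPM at PWD0 and 2814 and 3329 CPM at PWD21 (log2 fold change 2.17 ± 0.42, FDR = 0.00819) and 448 and 386 CPM at PWD0 and 1685 and 2353 CPM at PWD21 (log2 fold change 2.28 ± 0.39, FDR = 0.00499). Mmp13, a collagenase, had 0.20 and 1.53 CPM at PWD0 and 81.3 and 6.71 CPM at PWD21 (log2 fold change 5.55 ± 1.2, FDR = 0.0122), with PWD21 replicate 1 more than 10-fold above replicate 2, and this call was lost without PWD21 replicate 1. Timp3, the inhibitor held in the matrix, was the member that fell, from 1118 and 634 CPM to 103 and 142 CPM (log2 fold change -2.84 ± 0.40, FDR = 0.00202). ADAMTS proteases rose in 14 of 19 cases and fell in 2, with a median of 2.52 (2.09 with the length offset, where 12 rose). Adamts14, which trims procollagen, had 2.61 and 1.53 CPM at PWD0 and 37.2 and 60.7 CPM at PWD21 (log2 fold change 4.58 ± 0.45, FDR = 0.000459). Adamts18 had 3.21 and 0.976 CPM at PWD0 and 48.4 and 60.3 CPM at PWD21 (log2 fold change 4.74 ± 0.53, FDR = 0.000793), while Adamts5, an aggrecanase, had 9.42 and 9.76 CPM at PWD0 and 8.01 and 10.3 CPM at PWD21 (FDR = 0.915). Of the 11 and 16 calls of both lists, 8 and 9 held without PWD21 replicate 1 and 7 and 10 without PWD21 replicate 2.

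Integrins rose in 7 of 24 cases and fell in none (median 0.50). Itga11, the collagen receptor subunit of fibroblasts, had 5.01 and 4.74 CPM at PWD0 and 215 and 287 CPM at PWD21 (log2 fold change 5.69 ± 0.34, FDR = 0.000145), a gain of 51.5-fold. Itga4 had 1.0 and 6.97 CPM at PWD0 and 56.9 and 53.2 CPM at PWD21 (log2 fold change 3.75 ± 0.68, FDR = 0.00621). Itgb5 had 92.8 and 104 CPM at PWD0 and 418 and 453 CPM at PWD21 (log2 fold change 2.14 ± 0.29, FDR = 0.00165). Among 13 cadherins, 4 rose and 3 fell. Cdh11, the mesenchymal cadherin, had 60.1 and 58 CPM at PWD0 and 1285 and 1177 CPM at PWD21 (log2 fold change 4.38 ± 0.36, FDR = 0.000284). Cdh1, E-cadherin of epithelia, fell from 52.7 and 33.5 CPM to 8.31 and 16 CPM (log2 fold change -1.82 ± 0.41, FDR = 0.0143). Of the 7 calls in each list, 4 and 3 held without PWD21 replicate 1 and 3 and 4 without PWD21 replicate 2.

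Fibroblast markers changed in both directions. Of 19 tested markers of fibroblast lineages, 5 rose and 6 fell (median 0.21). Pdgfra, the receptor on most dermal fibroblasts, had 63.5 and 72 CPM at PWD0 and 385 and 300.5 CPM at PWD21 (log2 fold change 2.34 ± 0.29, FDR = 0.0013). En1, a homeobox gene of dorsal dermis, had 14.8 and 19.8 CPM at PWD0 and 53 and 85.4 CPM at PWD21 (log2 fold change 2.0 ± 0.34, FDR = 0.00498). Lrig1, a marker of papillary fibroblasts and of some epidermal stem cells, had 56.5 and 76.1 CPM at PWD0 and 272 and 353 CPM at PWD21 (log2 fold change 2.24 ± 0.31, FDR = 0.00192). Pi16, which marks adventitial and reticular fibroblasts, fell from 2151 and 1690.4 CPM to 28.7 and 36.9 CPM (log2 fold change -5.87 ± 0.44, FDR = 0.000223), a drop of 58.5-fold. Dpp4, also known as CD26, fell from 50.9 and 41.3 CPM to 11.4 and 12.6 CPM (log2 fold change -1.94 ± 0.31, FDR = 0.00344). S100a4, a short gene, fell (log2 fold change -1.85 ± 0.49, FDR = 0.0265) but was -0.48 with the length offset (FDR = 0.37). In bulk tissue, fewer cells of a type and less RNA per cell cannot be told apart, here and for every cell type that follows. Of the 11 calls, 8 held without PWD21 replicate 1 and 7 without PWD21 replicate 2.

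Mesenchymal transcription factors rose in 9 of 24 cases and fell in 4. Snai2, a zinc finger repressor of epithelial genes, had 12.8 and 9.34 CPM at PWD0 and 73 and 75.2 CPM at PWD21 (log2 fold change 2.74 ± 0.31, FDR = 0.000808). Twist2 had 97.8 and 63.3 CPM at PWD0 and 291 and 417 CPM at PWD21 (log2 fold change 2.14 ± 0.34, FDR = 0.00361). Tbx18 had 1.4 and 2.79 CPM at PWD0 and 23.7 and 27.3 CPM at PWD21 (log2 fold change 3.57 ± 0.44, FDR = 0.00125) and Prrx1 rose less (log2 fold change 1.38 ± 0.28, FDR = 0.0102), though Prrx1 was 0.92 with the length offset (FDR = 0.0722). Foxc2, Dlx5 and Scx, the last a tendon regulator, fell by log2 fold changes of -4.08 ± 0.68, -3.53 ± 0.54 and -2.41 ± 0.42. Of the 13 calls, 8 held without PWD21 replicate 1 and 9 without PWD21 replicate 2.

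Genes of the contractile apparatus of myofibroblasts and smooth muscle were mostly not called, with 3 of 24 that rose and 4 that fell. Both shares were close to those of all genes tested. With the length offset 2 rose and 6 fell, and the share that fell was then larger than that of all genes. Acta2, smooth muscle actin, had 940.4 and 2853 CPM at PWD0 and 1294 and 981 CPM at PWD21 (log2 fold change -0.74 ± 0.54, FDR = 0.339). Tagln had 1609.8 and 2631 CPM at PWD0 and 1690.3 and 1254 CPM at PWD21 (log2 fold change -0.53 ± 0.44, FDR = 0.399). For both, the wound libraries lay within or near the range of the intact ones, and PWD0 replicate 2 exceeded replicate 1. Cnn1, calponin of mature smooth muscle, fell with 187 and 719.8 CPM at PWD0 and 51.9 and 61.6 CPM at PWD21 (log2 fold change -3.0 ± 0.57, FDR = 0.00724). Actg2, a smooth muscle actin, also fell, with 339.8 and 1089 CPM at PWD0 and 83.1 and 88.7 CPM at PWD21 (log2 fold change -3.06 ± 0.52, FDR = 0.00484). Myh11, smooth muscle myosin, had 298 and 1827 CPM at PWD0 and 171 and 299 CPM at PWD21 and was not called (FDR = 0.0566). Of the 7 calls, none held without PWD21 replicate 1 and none without PWD21 replicate 2.

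Skeletal muscle sarcomere genes were mostly lower in the wound. Of 39 sarcomere genes tested, 3 rose and 19 fell (median -1.74). Myl1, a fast myosin light chain, fell from 17.8 and 27.2 CPM to 0.0431 and 0.198 CPM (log2 fold change -7.36 ± 0.65, FDR = 0.000331). Tnnc2, fast troponin C, fell from 11 and 9.06 CPM to 0.0862 and 0.227 CPM (log2 fold change -5.87 ± 0.63, FDR = 0.000655). Ckm, muscle creatine kinase, had 122 counts in all at PWD0 and 1 at PWD21, a pooled ratio of 587-fold lower with a 95% counting interval from 103-fold to 23370.0-fold. The 3 members that rose included Myh3, embryonic myosin heavy chain, with 0 and 0.976 CPM at PWD0 and 13.5 and 8.05 CPM at PWD21 (log2 fold change 4.29 ± 0.85, FDR = 0.00844). Another was Myl3, a slow myosin light chain, with 5.01 and 2.79 CPM at PWD0 and 22.8 and 21.5 CPM at PWD21 (log2 fold change 2.52 ± 0.42, FDR = 0.00412). Of the myogenic regulators, 5 of 13 passed the filter on low counts, of which 1 rose and 2 fell (median -0.17). Their summed level was higher in the wound, with 109 and 112 CPM at PWD0 and 165 and 166 CPM at PWD21. Gm7325, the gene of the muscle fusion factor myomixer, fell from 26.5 and 14.2 CPM to 0.172 and 0.17 CPM (log2 fold change -6.83 ± 0.57, FDR = 0.000302). Of the 22 sarcomere calls, 10 held without PWD21 replicate 1 and 13 without PWD21 replicate 2.

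No adipocyte gene rose, and 19 of 23 fell (median -2.21). Adipoq, the fat hormone adiponectin, had 23.1 and 19.9 CPM at PWD0 and 0.302 and 0.397 CPM at PWD21 (log2 fold change -5.9 ± 0.47, FDR = 0.000276). Plin1, the lipid droplet coat, had 27.5 and 40.7 CPM at PWD0 and 0.991 and 0.708 CPM at PWD21 (log2 fold change -5.33 ± 0.44, FDR = 0.000289). Lep, leptin, had 27.9 and 26.2 CPM at PWD0 and 0.0431 and 0.283 CPM at PWD21 (log2 fold change -7.2 ± 0.66, FDR = 0.000392). These defining markers were under 1 CPM in both wound libraries. Fabp4, shared with endothelium and macrophages, kept 232 and 116 CPM of 945 and 739 CPM (log2 fold change -2.27 ± 0.41, FDR = 0.00576). Retn, resistin, had no count in either PWD21 library, at least 24.2-fold lower. Summed over the list, adipocyte genes had 4328 and 4626 CPM at PWD0 and 624 and 804 CPM at PWD21. With the length offset 19 fell. Of the 19 calls, 11 held without PWD21 replicate 1 and 13 without PWD21 replicate 2.

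Epithelial genes of the dermal sheet fell as well. Of 27 keratinocyte markers, 23 fell and none rose (median -2.67), and with the offset 22 fell. Krt5 and Krt14, the keratins of basal cells, had 3679 and 1809 CPM at PWD0 and 202 and 345 CPM at PWD21 (log2 fold change -3.33 ± 0.53, FDR = 0.00344) and 1739.7 and 1288 CPM at PWD0 and 170.1 and 315 CPM at PWD21 (log2 fold change -2.64 ± 0.43, FDR = 0.00379). Krt17, a keratin of hair follicle epithelium, had 17927 and 8806 CPM at PWD0 and 444 and 425 CPM at PWD21 (log2 fold change -4.94 ± 0.75, FDR = 0.00293). Summed, the list had 29169 and 16703 CPM at PWD0 and 1307 and 2043 CPM at PWD21. Of the 23 calls, 13 held without PWD21 replicate 1 and 21 without PWD21 replicate 2.

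Sebaceous gland and barrier lipid genes fell in 16 of 20 cases and rose in none (median -2.2). Elovl3, a fatty acid elongase of the gland, had 899 and 947 CPM at PWD0 and 75.8 and 104 CPM at PWD21 (log2 fold change -3.36 ± 0.35, FDR = 0.000579). Awat2, a wax ester synthase, had 60.5 and 78.8 CPM at PWD0 and 4.7 and 8.07 CPM at PWD21 (log2 fold change -3.44 ± 0.38, FDR = 0.000714). Sterol synthesis genes fell in 13 of 23 cases (median -1.34), with Fdps at 51.5 and 35.1 CPM at PWD0 and 6.98 and 9.6 CPM at PWD21 (log2 fold change -2.38 ± 0.36, FDR = 0.00269). Msmo1 had 197 and 210.3 CPM at PWD0 and 35 and 47.8 CPM at PWD21 (log2 fold change -2.3 ± 0.29, FDR = 0.00134). The summed keratinocyte markers above moved with both lists, and their part in these falls was not tested. Of the 16 and 13 calls, 9 and 6 held without PWD21 replicate 1 and 12 and 6 without PWD21 replicate 2.

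**Figure D3:**
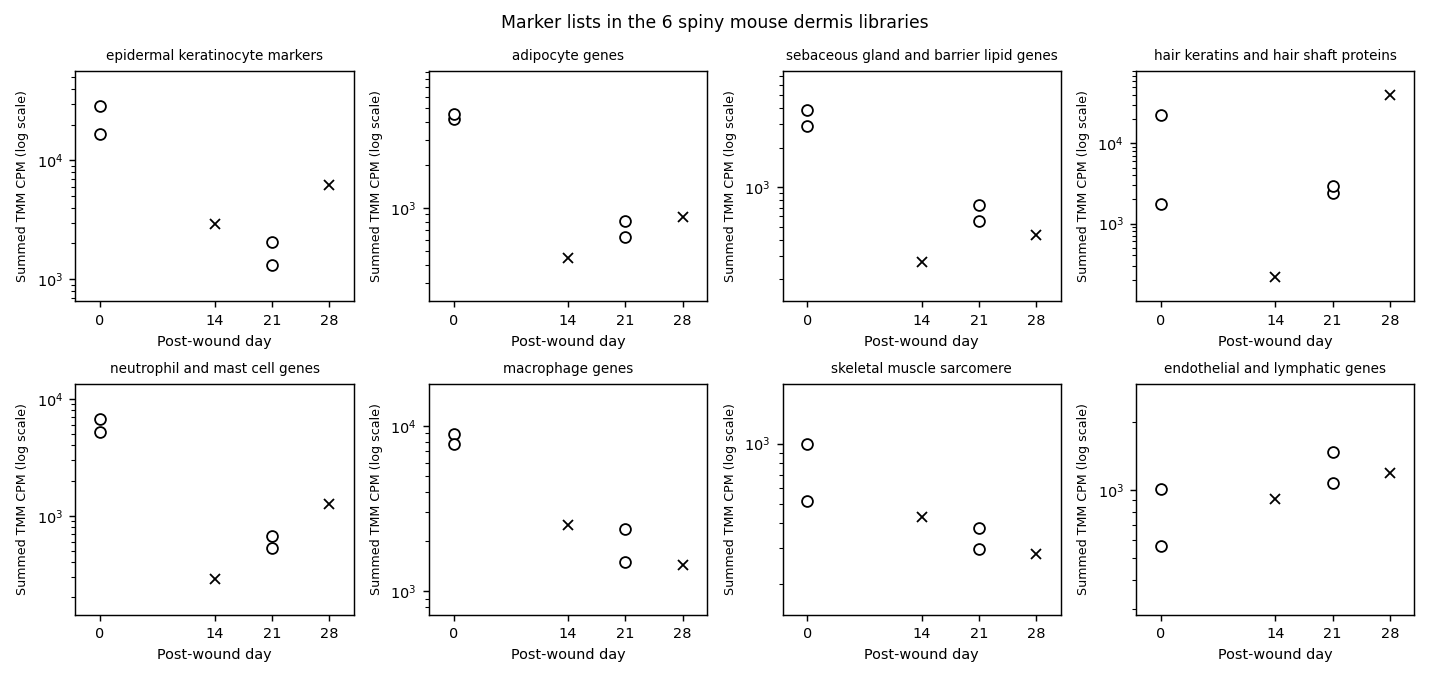
Summed TMM CPM (y axis, log scale) of the tested genes of 8 marker lists (panels) in the 6 spiny mouse dermis libraries (x axis, by post-wound day), on a scale set over the 6 libraries, with open circles for PWD0 and PWD21 replicates and crosses for the single libraries of PWD14 and PWD28. Keratinocyte, adipocyte and mast cell and neutrophil sums are higher in both PWD0 libraries than in any wound library, and the hair shaft sum differs between the PWD0 replicates.

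Hair follicle stem cell genes split. Of 17 tested, 3 rose and 9 fell. Krt15, a keratin of the bulge, had 4805 and 1690.4 CPM at PWD0 and 28.7 and 51.9 CPM at PWD21 (log2 fold change -6.33 ± 0.70, FDR = 0.000758), and the transcription factors Lhx2 and Sox9 fell from 198 and 160.1 CPM to 8.19 and 17.4 CPM (log2 fold change -3.81 ± 0.41, FDR = 0.000692) and from 289.7 and 223 CPM to 10.3 and 23.2 CPM (log2 fold change -3.93 ± 0.43, FDR = 0.000747). Fgf18, a ligand of the resting bulge, had 329 and 233 CPM at PWD0 and 9.87 and 6.52 CPM at PWD21 (log2 fold change -5.1 ± 0.38, FDR = 0.000223). Lgr5, a Wnt-associated receptor of cycling follicle cells, instead had 17.8 and 8.65 CPM at PWD0 and 58.5 and 43.9 CPM at PWD21 (log2 fold change 1.96 ± 0.40, FDR = 0.00996). Of the 12 calls, 7 held without PWD21 replicate 1 and 10 without PWD21 replicate 2.

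Hair shaft genes separated the PWD0 replicates from each other. Summed over 36 tested genes, the list had 1825 and 22829 CPM at PWD0 and 2375 and 2884 CPM at PWD21. Krt31, a keratin of the hair cortex, had 1.6 and 734 CPM at PWD0 and 13.7 and 18.2 CPM at PWD21 (FDR = 0.0841). Krt71, a keratin of the inner root sheath, had 5.01 and 832 CPM at PWD0 and 564 and 803 CPM at PWD21 (FDR = 0.73), so both wound libraries held it at the level of PWD0 replicate 2 and far above replicate 1. The inner root sheath keratins Krt25, Krt27 and Krt28, chosen after their values were seen, had 593 and 589, 372 and 354 and 126 and 130.5 CPM at PWD21, against 4.41 and 1196, 1.8 and 590.4 and 0.802 and 263 CPM at PWD0. In this list 1 gene rose and 7 fell, and with the length offset 1 rose and 4 fell. Of the 8 calls without the offset, 3 did not keep their sign with every library left out in turn. Krt75, of the companion layer, fell from 1655 and 979 CPM to 36.8 and 52.4 CPM (log2 fold change -4.88 ± 0.45, FDR = 0.000371). Krt35, of the cortex, fell (log2 fold change -2.2 ± 0.50, FDR = 0.0145). Of the 8 calls, 5 held without PWD0 replicate 2, and 1 held without PWD21 replicate 1 and 2 without PWD21 replicate 2. Without PWD0 replicate 2, the log2 fold changes of Krt31, Krt25 and Krt28 took the other direction, at 3.32, 7.07 and 7.32. A single PWD0 library was left there, so the spread at PWD0 was not measured.

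Genes of the dermal papilla and dermal condensate, the fibroblasts that instruct the follicle, rose in 16 of 37 cases and fell in 3 (median 1.15). Alpl, the alkaline phosphatase used to stain papillae, had 5.81 and 5.72 CPM at PWD0 and 54.7 and 39.5 CPM at PWD21 (log2 fold change 3.03 ± 0.34, FDR = 0.000793). Inhba, an activin subunit, had 1.6 and 4.32 CPM at PWD0 and 24 and 22.1 CPM at PWD21 (log2 fold change 2.93 ± 0.49, FDR = 0.00435). The papilla genes Sox2 and Corin were not called: Sox2 had 1.6 and 2.09 CPM at PWD0 and 1.59 and 3.97 CPM at PWD21 (FDR = 0.53). Corin had 0 and 1.39 CPM at PWD0 and 3.1 and 3.0 CPM at PWD21 (FDR = 0.134). Sostdc1, a secreted BMP and Wnt modulator of follicle epithelium and papilla, fell from 255 and 136 CPM to 19.4 and 21.8 CPM (log2 fold change -3.25 ± 0.37, FDR = 0.000793). Of the 19 calls, 8 held without PWD21 replicate 1 and 10 without PWD21 replicate 2.

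Hedgehog and Notch genes rose in 11 of 25 cases and fell in 2 (median 1.39), and with the length offset 9 rose and none fell. Ptch1 and Gli1, the receptor and transcription factor that hedgehog signaling itself induces, had 3.41 and 9.34 CPM at PWD0 and 47.2 and 76 CPM at PWD21 (log2 fold change 3.25 ± 0.50, FDR = 0.00302) and 5.61 and 12.1 CPM at PWD0 and 42.9 and 51.8 CPM at PWD21 (log2 fold change 2.4 ± 0.41, FDR = 0.00475). Shh, the ligand, was low, with 0.20 and 1.39 CPM at PWD0 and 1.98 and 4.53 CPM at PWD21 (FDR = 0.112). Cdon, a hedgehog co-receptor, rose from 18.2 and 20.2 CPM to 71.4 and 130.4 CPM (log2 fold change 2.39 ± 0.35, FDR = 0.0026). Hes1 and Nrarp, targets of Notch, fell (-1.79 ± 0.46 and -1.3 ± 0.39), but neither passed with the offset. Of the 13 calls, 9 held without PWD21 replicate 1 and 8 without PWD21 replicate 2.

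Among 28 Wnt ligands and receptors, 9 rose and 4 fell. The share that fell was close to that of all genes tested, and the share that rose was larger. Wnt2b had 0.401 and 0.418 CPM at PWD0 and 8.19 and 9.26 CPM at PWD21 (log2 fold change 4.39 ± 0.57, FDR = 0.00134). Wnt16 had 2.81 and 7.81 CPM at PWD0 and 25.2 and 28.6 CPM at PWD21 (log2 fold change 2.32 ± 0.48, FDR = 0.0107), both ligands, and the receptor Fzd2 had 51.5 and 46.9 CPM at PWD0 and 192 and 273 CPM at PWD21 (log2 fold change 2.24 ± 0.30, FDR = 0.00168). Wnt3, Wnt7b and the receptor Fzd8 fell, by log2 fold changes of -2.43 ± 0.60, -3.31 ± 0.94 and -3.86 ± 0.45. Wnt10b, a ligand of hair placodes, had 1.4 and 3.76 CPM at PWD0 and 1.77 and 1.59 CPM at PWD21 (FDR = 0.466). Of 28 Wnt inhibitors and targets, 10 rose and 6 fell (median 1.11). The inhibitor Sfrp2 rose from 2.21 and 3.49 CPM to 84.6 and 166 CPM (log2 fold change 5.44 ± 0.46, FDR = 0.000331), and the inhibitors Dkk4, Sost and Dkk2 fell by log2 fold changes of -5.43 ± 0.85, -5.43 ± 0.70 and -1.71 ± 0.36. Axin2 and Lef1, common readouts of Wnt signaling, had 20.6 and 37.2 CPM at PWD0 and 31.3 and 74.2 CPM at PWD21 and 7.62 and 15.9 CPM at PWD0 and 21.9 and 25.2 CPM at PWD21, and neither was called (FDR = 0.186 and FDR = 0.102), whereas the targets Apcdd1 and Nkd2 rose (2.15 ± 0.44 and 2.14 ± 0.49). Of the 13 and 16 calls, 7 and 10 held without PWD21 replicate 1, and 7 of each without PWD21 replicate 2.

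The ligands Tgfb1 and Tgfb3 were not called, with 82.8 and 108 CPM at PWD0 and 54.1 and 117 CPM at PWD21 (FDR = 0.78) and 64 and 37.9 CPM at PWD0 and 84.6 and 60.1 CPM at PWD21 (FDR = 0.294). Tgfb2 rose little (log2 fold change 0.97 ± 0.31, FDR = 0.0482), with a log2 fold change of 0.73 with the length offset (FDR = 0.103). Of 28 genes of TGF-beta and activin signaling, 7 rose and 1, Gdf15, fell (log2 fold change -3.17 ± 0.41, FDR = 0.00145). BMP ligands and antagonists gave 8 that rose and 10 that fell of 29. Bmp2 fell from 219 and 110.4 CPM to 18.4 and 32.2 CPM (log2 fold change -2.7 ± 0.42, FDR = 0.00328) and the antagonist Chrdl1 from 30.7 and 36.3 CPM to 0.689 and 0.907 CPM (log2 fold change -5.37 ± 0.41, FDR = 0.000227), while Bmp4 had 8.82 and 19.5 CPM at PWD0 and 15.9 and 19 CPM at PWD21 (FDR = 0.638). Among 24 FGF ligands and receptors 2 rose and 5 fell, with Fgfr1 higher (log2 fold change 1.48 ± 0.32, FDR = 0.0116) and Fgfr3 lower (log2 fold change -2.23 ± 0.40, FDR = 0.00576). Fgf7, Fgf9 and Fgf10 not called. Of the 8, 18 and 7 calls of these lists, 4, 5 and 4 held without PWD21 replicate 1 and 3, 6 and 2 without PWD21 replicate 2.

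Growth factors and the IGF axis rose in 9 of 31 cases and fell in 5. H19, an imprinted noncoding RNA of fetal tissue, had 23.1 and 40.7 CPM at PWD0 and 1723 and 1211 CPM at PWD21 (log2 fold change 5.52 ± 0.47, FDR = 0.000331), a gain of 45.9-fold, and Peg3, an imprinted zinc finger gene, had 1.6 and 1.39 CPM at PWD0 and 59.5 and 50.5 CPM at PWD21 (log2 fold change 5.2 ± 0.37, FDR = 0.000197). Igf2, the imprinted neighbor of H19, had 73.8 and 78.2 CPM at PWD0 and 97.4 and 61.3 CPM at PWD21 and was not called (FDR = 0.9). Pdgfd had 1.4 and 4.88 CPM at PWD0 and 84.7 and 54.6 CPM at PWD21 (log2 fold change 4.43 ± 0.56, FDR = 0.00129). Igfbp4 had 29.3 and 33.9 CPM at PWD0 and 251 and 250.1 CPM at PWD21 (log2 fold change 2.99 ± 0.28, FDR = 0.000409). Igfbp5 fell from 517 and 512 CPM to 189.5 and 169.6 CPM (log2 fold change -1.52 ± 0.29, FDR = 0.00715). Of the 14 calls, 5 held without PWD21 replicate 1 and 7 without PWD21 replicate 2.

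Hox genes, which mark body position in fibroblasts, fell more often than they rose. Of 29 tested, 3 rose and 8 fell, and with the length offset 3 rose and 7 fell. Hoxb7 had 57.5 and 44.8 CPM at PWD0 and 3.58 and 4.93 CPM at PWD21 (log2 fold change -3.58 ± 0.36, FDR = 0.000498), Hoxb8 46.1 and 30.5 CPM at PWD0 and 0.819 and 1.5 CPM at PWD21 (log2 fold change -5.02 ± 0.47, FDR = 0.000392) and Hoxb6 33.5 and 44.1 CPM at PWD0 and 2.71 and 5.38 CPM at PWD21 (log2 fold change -3.25 ± 0.43, FDR = 0.00155). Counted by cluster, a division made after these values were seen, 7 of 8 HoxB genes fell (median -3.16), also with the length offset. In the HoxA, HoxC and HoxD clusters, 2, 1 and 0 genes rose and 0, 1 and 0 fell, of 9, 7 and 5 tested. Hoxc8 had 137 and 99.3 CPM at PWD0 and 107 and 97.8 CPM at PWD21 (FDR = 0.62). Hoxa9 had 4.41 and 5.02 CPM at PWD0 and 16.5 and 21.3 CPM at PWD21 (log2 fold change 2.0 ± 0.38, FDR = 0.0073). The libraries were not strand-specific, so reads of a Hox gene and of an antisense RNA over it cannot be told apart. Of the 11 calls, 4 held without PWD21 replicate 1 and 6 without PWD21 replicate 2.

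**Figure D4:**
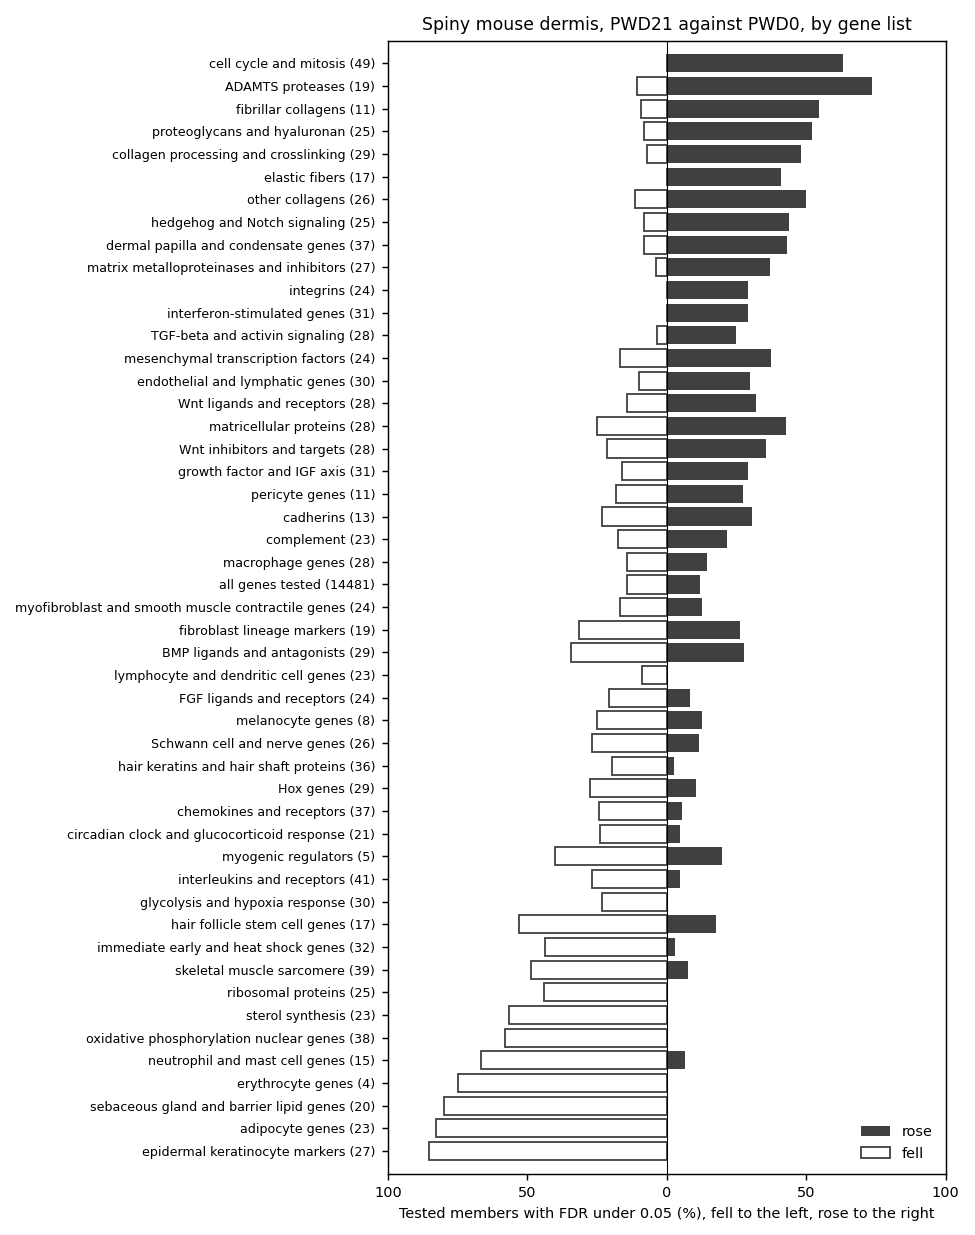
Percent of tested members (x axis) that rose (right, filled) or fell (left, open) at PWD21 in each of 48 gene lists and over all genes tested (rows, with the number tested in brackets). Cell cycle, ADAMTS and fibrillar collagen lists extend furthest to the right, and keratinocyte, adipocyte and sebaceous lists furthest to the left.

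Cell cycle genes rose in 31 of 49 cases and fell in none (median 1.46), and with the offset 30 rose. Mki67, the proliferation antigen, had 10.6 and 9.06 CPM at PWD0 and 32.4 and 25 CPM at PWD21 (log2 fold change 1.54 ± 0.34, FDR = 0.0126). Top2a, a topoisomerase of dividing cells, had 12.4 and 15.6 CPM at PWD0 and 73.1 and 61.5 CPM at PWD21 (log2 fold change 2.26 ± 0.30, FDR = 0.00169). Plk1 and Kif20a, which act in mitosis, had 2.41 and 4.88 CPM at PWD0 and 24.9 and 22.4 CPM at PWD21 (log2 fold change 2.68 ± 0.43, FDR = 0.00378) and 5.01 and 3.35 CPM at PWD0 and 30.6 and 34 CPM at PWD21 (log2 fold change 2.96 ± 0.37, FDR = 0.00131). Ccnb1 was low, with 1.4 and 0.418 CPM at PWD0 and 0.689 and 0.907 CPM at PWD21 (FDR = 0.941). Spiny mouse reads were aligned to the laboratory mouse genome, and whether this lowered the count of Ccnb1 was not tested. Of the 31 calls, 9 held without PWD21 replicate 1 and 10 without PWD21 replicate 2, and all 31 had the same sign with each library left out in turn.

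Immune genes did not move as 1 block. Of 15 neutrophil and mast cell genes, 1 rose and 10 fell (median -2.56), the same counts as with the length offset. Cpa3, the mast cell carboxypeptidase, had 1323 and 1274 CPM at PWD0 and 96.7 and 75.4 CPM at PWD21 (log2 fold change -3.92 ± 0.36, FDR = 0.000392), Tpsb2, a tryptase, had 625 and 505 CPM at PWD0 and 30.8 and 42.4 CPM at PWD21 (log2 fold change -3.95 ± 0.34, FDR = 0.000331). Fcer1a, the IgE receptor, had 91.4 and 54.2 CPM at PWD0 and 1.94 and 3.4 CPM at PWD21 (log2 fold change -4.76 ± 0.44, FDR = 0.000392). S100a9, of neutrophils, was the gene that rose, with 0.802 and 0.139 CPM at PWD0 and 6.12 and 5.1 CPM at PWD21 (log2 fold change 3.69 ± 0.75, FDR = 0.0093). Of 28 macrophage genes, 4 rose and 4 fell, and 7 rose and 4 fell with the offset. Without the offset, the shares of macrophage genes were close to those of all genes tested. Csf1r, the macrophage growth factor receptor, had 19.8 and 34.9 CPM at PWD0 and 73.2 and 57.1 CPM at PWD21 (log2 fold change 1.25 ± 0.35, FDR = 0.0307). Adgre1, which encodes F4/80, had 7.62 and 14.5 CPM at PWD0 and 11.3 and 10.3 CPM at PWD21 (FDR = 0.947). Arg1 fell from 70.6 and 34.4 CPM to 0.517 and 0.992 CPM (log2 fold change -6.09 ± 0.54, FDR = 0.000332) and Apoe from 8474 and 7105 CPM to 1326 and 799.7 CPM (log2 fold change -2.87 ± 0.58, FDR = 0.00947), both also made by skin cells other than macrophages. Of 23 lymphocyte and dendritic cell genes, the 2 that changed both fell, Cd207 of Langerhans cells (log2 fold change -2.73 ± 0.36, FDR = 0.00164) and H2-Eb1 (log2 fold change -1.4 ± 0.34, FDR = 0.0183), whose log2 fold change was -0.90 with the length offset (FDR = 0.0839). Cd3e of T cells had 8.02 and 7.53 CPM at PWD0 and 8.87 and 5.86 CPM at PWD21 (FDR = 0.908). Of the 11, 8 and 2 calls of the 3 lists, 8, 2 and 1 held without PWD21 replicate 1 and 9, 3 and 1 without PWD21 replicate 2.

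Cytokine genes fell more often than they rose. Among 41 interleukins and receptors, 2 rose and 11 fell (9 with the offset), and among 37 chemokines and receptors 2 rose and 9 fell (5 with the offset). With the offset, the share of chemokine genes that fell was close to that of all genes tested. Il6 had 71 and 80.9 CPM at PWD0 and 6.51 and 6.12 CPM at PWD21 (log2 fold change -3.59 ± 0.31, FDR = 0.000331). Il1r2, a decoy receptor of interleukin 1, had 343 and 161 CPM at PWD0 and 5.43 and 5.67 CPM at PWD21 (log2 fold change -5.5 ± 0.44, FDR = 0.000284). Il33 fell from 22.3 and 33.3 CPM to 6.55 and 6.88 CPM (log2 fold change -2.05 ± 0.36, FDR = 0.00536) and Cxcl14 from 523 and 247 CPM to 86.2 and 66.9 CPM (log2 fold change -2.33 ± 0.40, FDR = 0.00481). Ccl2 and Il1b fell (-1.13 ± 0.31 and -1.16 ± 0.29) but did not pass with the offset. Interferon-stimulated genes rose in 9 of 31 cases and fell in none (median 1.13), with Mx1 at 3.41 and 1.81 CPM at PWD0 and 29.3 and 16.1 CPM at PWD21 (log2 fold change 3.14 ± 0.50, FDR = 0.00343). Mx2 had 68 and 47 CPM at PWD0 and 468 and 261 CPM at PWD21 (log2 fold change 2.66 ± 0.38, FDR = 0.00218). Complement genes gave 5 that rose and 4 that fell of 23, among them Masp1, a protease of the lectin pathway, with 1.0 and 3.9 CPM at PWD0 and 47 and 54.1 CPM at PWD21 (log2 fold change 4.32 ± 0.55, FDR = 0.00137). Cfd, adipsin, which fat cells make, had 199 and 169 CPM at PWD0 and 19.9 and 11.1 CPM at PWD21 (log2 fold change -3.57 ± 0.37, FDR = 0.000571). Of the 13, 11, 9 and 9 calls of these 4 lists, 5, 3, 2 and 5 held without PWD21 replicate 1 and 6, 4, 5 and 6 without PWD21 replicate 2.

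Of 30 endothelial and lymphatic genes, 9 rose and 3 fell (median 0.93), and with the length offset 10 rose and 5 fell. Cdh5, VE-cadherin, had 15 and 29.6 CPM at PWD0 and 80.2 and 89.7 CPM at PWD21 (log2 fold change 1.93 ± 0.36, FDR = 0.00712). Apln and its receptor gene Aplnr, of growing vessels, had 3.21 and 0.976 CPM at PWD0 and 22.6 and 33 CPM at PWD21 (log2 fold change 3.78 ± 0.56, FDR = 0.00261) and 0.401 and 4.18 CPM at PWD0 and 23.9 and 23.8 CPM at PWD21 (log2 fold change 3.31 ± 0.73, FDR = 0.0132). The 3 that fell without the offset are known from lymphatic vessels: Lyve1 had 6.42 and 22.6 CPM at PWD0 and 1.68 and 2.49 CPM at PWD21 (log2 fold change -2.8 ± 0.62, FDR = 0.0133), Prox1 3.21 and 11 CPM at PWD0 and 0.345 and 1.27 CPM at PWD21 (log2 fold change -3.11 ± 0.79, FDR = 0.0228) and Mmrn1 33.7 and 104 CPM at PWD0 and 5.47 and 7.14 CPM at PWD21 (log2 fold change -3.45 ± 0.53, FDR = 0.00295). In these 3 genes PWD0 replicate 2 was more than 3-fold above replicate 1, and both PWD0 libraries lay above both wound libraries. Among 11 pericyte genes 3 rose and 2 fell, with Abcc9 at 7.82 and 20.6 CPM at PWD0 and 86.8 and 84.8 CPM at PWD21 (log2 fold change 2.58 ± 0.44, FDR = 0.00476). Of the 12 and 5 calls, 5 and 3 held without PWD21 replicate 1 and 5 and 4 without PWD21 replicate 2.

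Schwann cell and nerve genes gave 3 that rose and 7 that fell of 26. The share that rose was close to that of all genes tested, and the share that fell was larger. Sox10, a transcription factor of glia and melanocytes, had 6.62 and 11 CPM at PWD0 and 10.6 and 15.8 CPM at PWD21 (FDR = 0.339), so it was present on both days. S100b fell from 19.8 and 10.9 CPM to 2.46 and 2.1 CPM (log2 fold change -2.75 ± 0.46, FDR = 0.00443). Nefl, neurofilament light chain, had no count in either PWD0 library and 18.3 and 9.43 CPM at PWD21, at least 23.1-fold higher. Of 8 melanocyte genes tested, 1 rose and 2 fell, with Ednrb higher (log2 fold change 1.76 ± 0.38, FDR = 0.0119), Kit lower (log2 fold change -1.85 ± 0.33, FDR = 0.00595, shared with mast cells) and Mitf lower (log2 fold change -1.07 ± 0.27, FDR = 0.0233). Erythrocyte genes fell in 3 of 4 cases, 2 with the offset, and Hba-a1 had 189.8 and 104 CPM at PWD0 and 54 and 30.7 CPM at PWD21 (log2 fold change -1.8 ± 0.39, FDR = 0.0128), with a log2 fold change of -0.66 with the length offset (FDR = 0.121). Of the 10, 3 and 3 calls, 3, 0 and 3 held without PWD21 replicate 1 and 4, 2 and 1 without PWD21 replicate 2.

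Stress genes were higher in intact dermis where they changed, with 1 exception. Of 32 immediate early and heat shock genes, 14 fell and 1 rose (median -1.28). Dnajb1, an HSP40 co-chaperone, had 764 and 1327 CPM at PWD0 and 113 and 153 CPM at PWD21 (log2 fold change -2.97 ± 0.40, FDR = 0.00173). Hsph1, an HSP110 chaperone, had 276 and 665 CPM at PWD0 and 40.2 and 78.7 CPM at PWD21 (log2 fold change -2.98 ± 0.50, FDR = 0.00436). Hspa1b, an inducible HSP70 gene nearly identical to Hspa1a, so that their reads may be split, had 284 and 779.6 CPM at PWD0 and 33.3 and 89.2 CPM at PWD21 (log2 fold change -3.12 ± 0.60, FDR = 0.0075). Hspb1, the small HSP27, had 9.62 and 13 CPM at PWD0 and 1.51 and 1.16 CPM at PWD21 (log2 fold change -3.08 ± 0.47, FDR = 0.00291). For all 4, both intact libraries lay above both wound libraries. Of all 14481 genes tested, 9858 had no overlap between the days in either direction. Fos and Egr1, immediate early genes, had 1361 and 3144 CPM at PWD0 and 599.9 and 1072 CPM at PWD21 (FDR = 0.0746) and 809.7 and 1593 CPM at PWD0 and 175 and 590.1 CPM at PWD21 (FDR = 0.0679). Of the 15 calls, 5 held without PWD21 replicate 1 and 10 without PWD21 replicate 2.

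The mouse promoters of these genes are shown because heat shock genes fell together and such genes are known to share a promoter element. The element was chosen after these values were seen. The element was searched as GAANNTTC or TTCNNGAA, which covers both strands since each is its own reverse complement, in RefSeq windows of GRCm38.p6 from 250 bases before to 50 bases after each start. It occurs in 15.1% of 32851 promoter windows, in 1.96% more than once and in 0.256% at least 3 times, and was found in 4 of the 5 heat shock genes of the list with a window. Dnajb1 held none, which says only that these letters are not in its windows. The sequences run 5′ to 3′ on the strand of the gene, are those of the laboratory mouse and not of the spiny mouse, and carry the matches in capitals.
Hsph1 (chr5:149636287-149636586, minus strand): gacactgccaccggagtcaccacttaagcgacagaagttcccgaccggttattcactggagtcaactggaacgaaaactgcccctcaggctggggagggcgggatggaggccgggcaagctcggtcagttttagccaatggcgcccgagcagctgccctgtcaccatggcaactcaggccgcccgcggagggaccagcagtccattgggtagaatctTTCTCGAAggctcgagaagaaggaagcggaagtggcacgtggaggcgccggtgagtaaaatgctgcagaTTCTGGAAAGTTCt
Hspb1 (chr5:135887669-135887968, plus strand): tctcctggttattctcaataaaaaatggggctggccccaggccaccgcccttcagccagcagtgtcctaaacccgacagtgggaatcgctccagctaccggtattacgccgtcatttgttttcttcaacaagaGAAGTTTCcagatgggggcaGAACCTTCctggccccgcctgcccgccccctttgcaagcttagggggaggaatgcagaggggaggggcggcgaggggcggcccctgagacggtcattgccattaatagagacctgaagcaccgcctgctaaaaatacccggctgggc
Hspa1b (chr17:34959189-34959488, minus strand): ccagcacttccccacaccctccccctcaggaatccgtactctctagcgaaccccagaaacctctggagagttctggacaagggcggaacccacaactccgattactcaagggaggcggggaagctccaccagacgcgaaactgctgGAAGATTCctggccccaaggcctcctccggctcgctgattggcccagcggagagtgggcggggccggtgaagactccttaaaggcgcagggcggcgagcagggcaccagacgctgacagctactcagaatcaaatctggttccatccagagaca
The last 2 matches of the Hsph1 window overlap. They are a description of letters and say nothing about which factor was bound in these tissues.

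Metabolic genes were lower, in part with gene length. Genes of oxidative phosphorylation, whose median exon length was 2210 bases, fell in 22 of 38 cases and rose in none (median -1.14), but in 8 with the length offset (median -0.76). Cox7a1, the muscle and fat form of a cytochrome oxidase subunit, fell from 28.3 and 19.4 CPM to 2.33 and 1.76 CPM (log2 fold change -3.54 ± 0.42, FDR = 0.000967). Ribosomal protein genes fell in 11 of 25 cases, and in 6 with the offset (median -1.39 and -0.69), and their reads may be split with processed pseudogenes. Glycolysis and hypoxia genes fell in 7 of 30 cases and in 11 with the offset, and Tpi1 had 251 and 203 CPM at PWD0 and 45.7 and 40.3 CPM at PWD21 (log2 fold change -2.4 ± 0.29, FDR = 0.000982). Clock and glucocorticoid response genes gave 1 that rose and 5 that fell of 21, with Tsc22d3, a glucocorticoid-induced gene, at 818 and 265 CPM at PWD0 and 68.3 and 65.4 CPM at PWD21 (log2 fold change -3.02 ± 0.51, FDR = 0.00443). The hour of harvest was not given in the sources used here. Of the 22, 11, 7 and 6 calls of these lists, 7, 0, 2 and 1 held without PWD21 replicate 1 and 1, 0, 3 and 3 without PWD21 replicate 2.

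The single libraries of dermis at PWD14 and PWD28 give values with no replicate check. On a scale set over the 6 dermis libraries, of the 1742 genes that rose, 1403 (80.5%) lay above both PWD0 libraries at PWD14 and 1662 (95.4%) at PWD28. Of the 2050 that fell, 1743 (85.0%) and 1809 (88.2%) lay below both. The same PWD0 libraries served to call these genes, which favors that side, so the shares are no check of the calls. The share over all genes tested was not counted. Tnn had 0 and 2.48 CPM at PWD0, 1727 CPM at PWD14, 562 and 589 CPM at PWD21 and 12.3 CPM at PWD28. Egfl6, by contrast, had 0 and 0.414 CPM at PWD0, 39.8 CPM at PWD14, 442 and 358 CPM at PWD21 and 146 CPM at PWD28. The matrix genes Tnc and Mmp11 had their highest value in the PWD14 library, 5914 and 2449.7 CPM, and Prss35 and Gpc3 in a PWD21 library. Ptch1 had 3.32 and 9.25 CPM at PWD0, 1.76 CPM at PWD14, 47.2 and 77.1 CPM at PWD21 and 88.7 CPM at PWD28. Krt71 of the inner root sheath had 4.88 and 824 CPM at PWD0, 25.9 CPM at PWD14, 564 and 815 CPM at PWD21 and 9724 CPM at PWD28. Mast cell Cpa3 had 1287 and 1260.4 CPM at PWD0, 9.13 CPM at PWD14, 96.7 and 76.6 CPM at PWD21 and 175 CPM at PWD28, and Adipoq had 22.4 and 19.7 CPM at PWD0, 0 CPM at PWD14, 0.302 and 0.403 CPM at PWD21 and 0.752 CPM at PWD28.

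To ask where the dermis differed from the epidermis, its change from PWD0 to PWD21 was compared with that of spiny mouse wound epidermis, as an interaction over 7 libraries, of which the epidermis at PWD0 had 1. That lone library was assumed to vary like the others. Of 15747 genes tested, 1925 (12.2%) changed more positively in the dermis and 1796 (11.4%) more negatively. Gpc3, a cell surface glypican, had 34 and 43 CPM in the dermis at PWD0 and 3272 and 2311 CPM at PWD21, and 50 CPM in the epidermis at PWD0 and 4.29 and 4.05 CPM at PWD21, a difference of 9.76 ± 0.48 (FDR = 0.000303) on the log2 scale. Prss35 had 4.97 CPM in the epidermis at PWD0 and 1.59 and 2.17 CPM at PWD21, with a difference of 9.24 ± 0.61 (FDR = 0.000466). Krt6a, a keratin of activated epidermis, had 99.6 and 47.8 CPM in the dermis at PWD0 and 16.3 and 25 CPM at PWD21, and 16.8 CPM in the epidermis at PWD0 and 2647 and 1678 CPM at PWD21, a difference of -8.83 ± 0.84 (FDR = 0.00152). By list, the change was more positive in the dermis for 13 of 29 collagen processing genes, 14 of 28 matricellular genes, 12 of 25 hedgehog and Notch genes and 12 of 30 Wnt ligands and receptors. It was more negative for 17 of 27 keratinocyte markers, 9 of 23 adipocyte genes and 26 of 39 genes of oxidative phosphorylation. These list counts were made without the length offset, which cut the falls of oxidative phosphorylation genes in the dermis alone from 22 to 8. Of 49 cell cycle genes, 8 changed more positively and 1 more negatively in the dermis. Sgca, a muscle sarcoglycan, and Erg, an endothelial transcription factor, had no reads in the lone epidermis library of PWD0. Leaving out single libraries gave between 1667 genes, without epidermis PWD21 replicate 2, and 4676, without dermis PWD0 replicate 2. With library size alone in place of TMM the split was 2314 to 1326, and with the length offset 1176 to 1606.

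**Figure D5:**
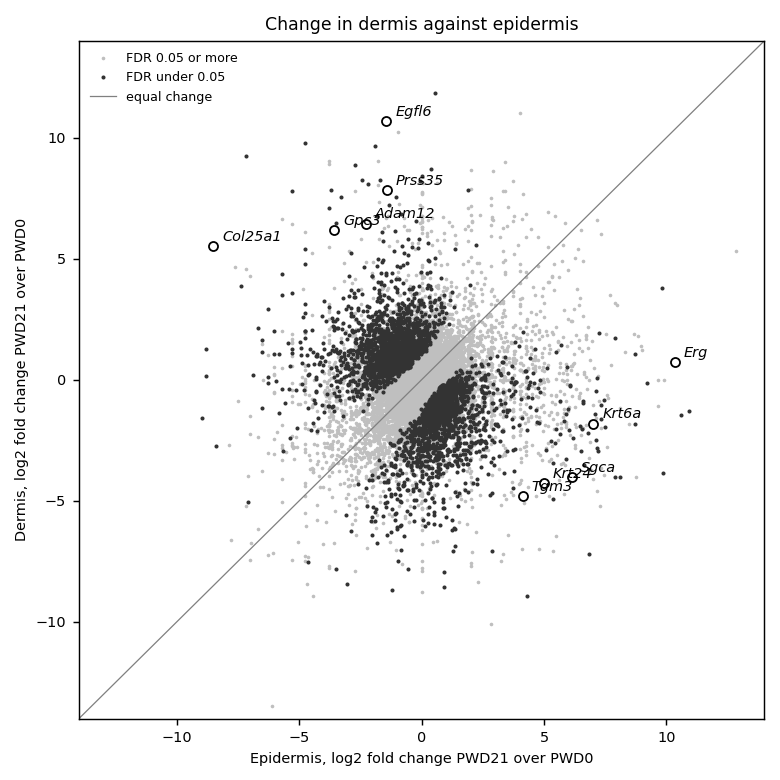
Log2 fold change from PWD0 to PWD21 in the dermis (y axis) against the epidermis (x axis) for all genes tested in the interaction, with genes at FDR under 0.05 in the interaction drawn dark and the 10 named genes labelled. Col25a1, Egfl6, Gpc3, Prss35 and Adam12 lie at the upper left, and Krt6a, Krt24, Tgm3, Sgca and Erg lie at the right, below the line of equal change.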

How the data were processed

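Poly(A) RNA-seq libraries of spiny mouse skin were single-end and not strand-specific. The authors aligned the reads to the laboratory mouse genome mm10 with STAR (version 2.4.1d per the submitters' processing notes) and counted them per gene with HTSeq 0.6.0. The deposited values are raw counts for 24500 gene symbols, and summary lines that name no gene were dropped. Depths and floors are given with the results. Intervals and floors cover counting error only.

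Genes were filtered with filterByExpr, scaled by TMM and tested with edgeR 4.0.16 (quasi-likelihood, Benjamini-Hochberg FDR threshold 0.05, R 4.3.3) on the 4 dermis libraries, prior count 0.125. The difference between dermis and epidermis was the interaction of tissue and day over 7 libraries. The length offset removed a smooth trend (lowess, span 0.5) of each library on exon length from the GENCODE annotation of GRCm38, and it was chosen after the data were seen. Alternatives used DESeq2 1.42.0 with its size factors, other edgeR tests, scalings, filters and sample sets, thinned counts and each library left out. The scripts were tested on simulated data.

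Members and gene lists were chosen with earlier results of these data known. Except for core list members and the difference between tissues, named genes had to pass the threshold and not overlap between days. The 10 that rose and the 10 that fell most were taken where their mean over the libraries reached 10 CPM. In each list, core members were named together with up to 4 genes a direction whose mean reached 1 CPM. For the difference between tissues, the 5 most positive and 5 most negative calls with a mean of 10 CPM or more were named. Genes outside this rule are named as such.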

Additional observations from a re-analysis of the deposited data

Results flagged for a closer look

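The change from PWD0 to PWD21 differed between dermis and epidermis by the interaction test of edgeR (FDR under 0.05) for 10 named genes, each given as the dermal minus the epidermal log2 fold change. The change was more positive in the dermis for Col25a1 (14.02), Egfl6 (12.12), Gpc3 (9.76), Prss35 (9.24) and Adam12 (8.73). It was more negative in the dermis for Sgca (-10.16), Erg (-9.63), Krt24 (-9.27), Tgm3 (-8.95) and Krt6a (-8.83). The epidermis at PWD0 had 1 library, and Sgca and Erg had no reads in it, so their fitted differences depend on the prior count and are no bounds. The differences of Col25a1 and Egfl6 also rest on a group near 0. Col25a1 had 0 and 0.0587 CPM in the epidermis at PWD21, and Egfl6 had 0 and 0.41 CPM in the dermis at PWD0. No group had the 4 samples that a test for a stray sample needs.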

How the results depend on the processing

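The 3792 calls of the dermis comparison and their split stayed within 1.5 times under DESeq2 (4203), the likelihood ratio test (4791), RLE (3837) and upper-quartile factors (3860), library size alone (3591), both filters, the 6 dermis libraries, thinning and the length offset. With all 12 spiny mouse libraries 2661 genes rose. Leaving out single libraries gave 1311 to 5118 calls, with 519 to 2516 that rose and 696 to 2602 that fell. With the length offset as well, 1984 genes were called without PWD21 replicate 1 (938 rose and 1046 fell) and 1917 without PWD21 replicate 2 (795 rose and 1122 fell). For the difference between tissues, leaving out single libraries gave 1667 to 4676 calls, with 840 to 2466 more positive and 759 to 2210 more negative, and the length offset left 1176 more positive. Library size alone moved the median log2 fold change of all genes to 0.12. With single libraries left out, the log2 fold changes ranged from -1.0 to 7.07 for Krt25, from -1.02 to 7.32 for Krt28 and from -5.51 to 3.32 for Krt31, the highest being without PWD0 replicate 2. There they were 7.61, 8.03 and 4.07 with the length offset. Over all settings of this section, and not the left-out libraries alone, the genes named gave 4476 values. Of these, 163 lost the threshold, 55 gained it and 6 took the other direction. Of 576 list medians, taken over fewer of the settings, 183 moved by more than the spread between replicates. The cause was not tested. No paired analysis was possible because the labels carry no replicate numbers, and those used here only follow the listing of the samples. The depth of the PWD0 libraries limits genes near their floors of 0.601 and 0.418 CPM on the TMM scale.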
